A study of Mus musculus with 7 samples.

Results

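The 7 pluripotency factors Pou5f1, Nanog, Sox2, Klf4, Zfp42, Esrrb and Tdgf1 were followed through the direct conversion of mouse fibroblasts into hepatocyte-like cells. They were chosen by name, as every probe whose gene name on the array, or current symbol of its transcript, is 1 of these 7. That gave 9 probes of 41138, and 7 of the 27583 genes and unnamed probes on the array. Zfp42 and Esrrb had 2 probes each. RNA of mouse embryonic fibroblasts (MEF, 3 arrays), of induced hepatocyte-like cells made from them (iHep, 3 types with 1 array each) and of hepatocytes from adult mouse liver (1 array) was hybridised to 1-colour Agilent arrays. All cells had the C57BL/6 background, the MEF came from embryos of 13.5 days post coitum, and the labels name the iHep types 4α1, 4α2 and 4α3. The study is known to have made iHep cells by adding Hnf4a with Foxa1, Foxa2 or Foxa3, and the labels do not spell out the digit. The hepatocyte array has no replicate, and each iHep array is a type of its own, so the spread within the iHep group is a spread between types.

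In embryonic stem cells the POU factor Oct4, encoded by Pou5f1, and the SOX factor Sox2 bind next to each other on a composite DNA motif and, with the homeobox factor Nanog, keep the pluripotency network running. Klf4, a Kruppel-like zinc finger factor, and Esrrb, an orphan nuclear receptor, belong to the naive layer of that network, Zfp42 (Rex1) is a marker of it, and Tdgf1 (Cripto) is a co-receptor for the ligand Nodal. Klf4 is also expressed in fibroblasts and in epithelia of skin and gut, where it acts in barrier formation and cell cycle exit. Reprogramming to pluripotency passes through activation of these genes, whereas direct conversion is a change from one differentiated state to another, and their levels bear on whether such cells show the network.

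RefSeq sequences of build GRCm38.p6 were matched by symbol for all 7 genes, and the 250 bases before the gene start are printed for 3 of them. Nanog and Zfp42 are shown because they were not detected on any iHep array and carry a motif of the network, and Klf4 because it was the factor detected on every array. Capitals mark the composite octamer-SOX motif, TTTGCAT and ACAATG with any base between, in Nanog (chr6:122707239-122707488, plus strand), the octamer ATTTGCAT in Zfp42 (chr8:43307010-43307259, minus strand) and every CG pair in Klf4 (chr4:55532476-55532725, minus strand).
Nanog: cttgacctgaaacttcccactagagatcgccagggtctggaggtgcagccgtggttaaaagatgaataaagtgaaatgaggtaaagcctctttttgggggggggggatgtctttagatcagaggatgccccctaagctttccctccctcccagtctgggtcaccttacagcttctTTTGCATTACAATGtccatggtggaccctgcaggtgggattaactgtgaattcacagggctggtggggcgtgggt
Zfp42: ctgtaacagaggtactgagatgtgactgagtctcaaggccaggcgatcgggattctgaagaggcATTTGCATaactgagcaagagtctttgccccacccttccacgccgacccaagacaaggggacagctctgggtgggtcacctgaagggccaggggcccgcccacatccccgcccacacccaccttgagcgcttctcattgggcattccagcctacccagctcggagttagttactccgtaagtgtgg
Klf4: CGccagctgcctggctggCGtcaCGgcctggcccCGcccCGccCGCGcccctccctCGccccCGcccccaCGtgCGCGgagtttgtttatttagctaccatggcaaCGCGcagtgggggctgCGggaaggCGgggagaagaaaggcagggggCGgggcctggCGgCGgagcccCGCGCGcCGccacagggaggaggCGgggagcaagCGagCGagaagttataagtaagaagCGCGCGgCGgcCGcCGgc
Both strands of the same window were searched for 19827 genes. The composite motif lay 75 to 62 bases before the start of Nanog and was found in 0.00504% of windows, and the SOX core ACAATG in Nanog, found in 12.0% of windows, is part of it. The octamer lay 186 to 179 bases before the start of Zfp42 and was found in 1.8% of windows. The oestrogen-related receptor half-site TCAAGGTCA, found in 0.409% of windows, was in none of the 7.
The windows also differed in base composition. The window of Klf4 held 32 CG pairs, with 74.0% G and C and an observed to expected CG ratio of 0.941, which is at percentile 92.8 of all windows. Sox2 followed with 27 CG pairs and a ratio of 0.833. Nanog had 3 CG pairs and a ratio of 0.182, the lowest of the 7, against a median of 0.305 over all windows. Pou5f1 (0.334), Zfp42 (0.423), Esrrb (0.264) and Tdgf1 (0.648) lay between them. A match describes these letters only.

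Signals are given as levels, on a log2 scale whose 0 is the 75th percentile of the array. A probe counts as detected where the scanner software marked it well above background. The lowest signal so marked ran from 10.9 to 15.1 on the 7 arrays, which is a level of -5.79 on the hepatocyte array and of -6.90 on MEF-2. The 75th percentile of signal was 1583 on MEF-2 and 1502 on MEF-3 against 624 to 902 on the other 5 arrays, so these MEF arrays could show lower levels than the rest. They shared slide 2, MEF-1 shared slide 1 with the 3 iHep arrays, and the hepatocyte array had a slide of its own. MEF-2 and MEF-3 differed by 0.50 to 0.90 times what repeated spots on 1 array predict, less than the sampling noise, and were counted as 1 sample, which leaves 2 MEF samples beside 3 iHep samples and 1 hepatocyte sample. The labels held against their markers. All 10 fibroblast markers were detected on each MEF array, and 8 to 9 of them also on each iHep array and 5 on the hepatocyte array. Of 11 hepatocyte markers, 9 to 10 were detected on each iHep array, 2 on each MEF array and all 11 on the hepatocyte array.

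Most of the 7 factors were not detected in iHep cells. Of the 7 genes, 6 were detected on no iHep array, and Klf4 was the exception. Of all probes, 61.0% to 63.6% were well above background on each iHep array. Of all 27583 genes and unnamed probes, 15829 were detected on all 3 iHep arrays. Pou5f1 and Tdgf1 were not well above background on any of the 7 arrays. In bulk RNA, fewer cells of a type and less RNA per cell cannot be told apart, so a small share of positive cells under these limits was not detectable.

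**Figure D1:**
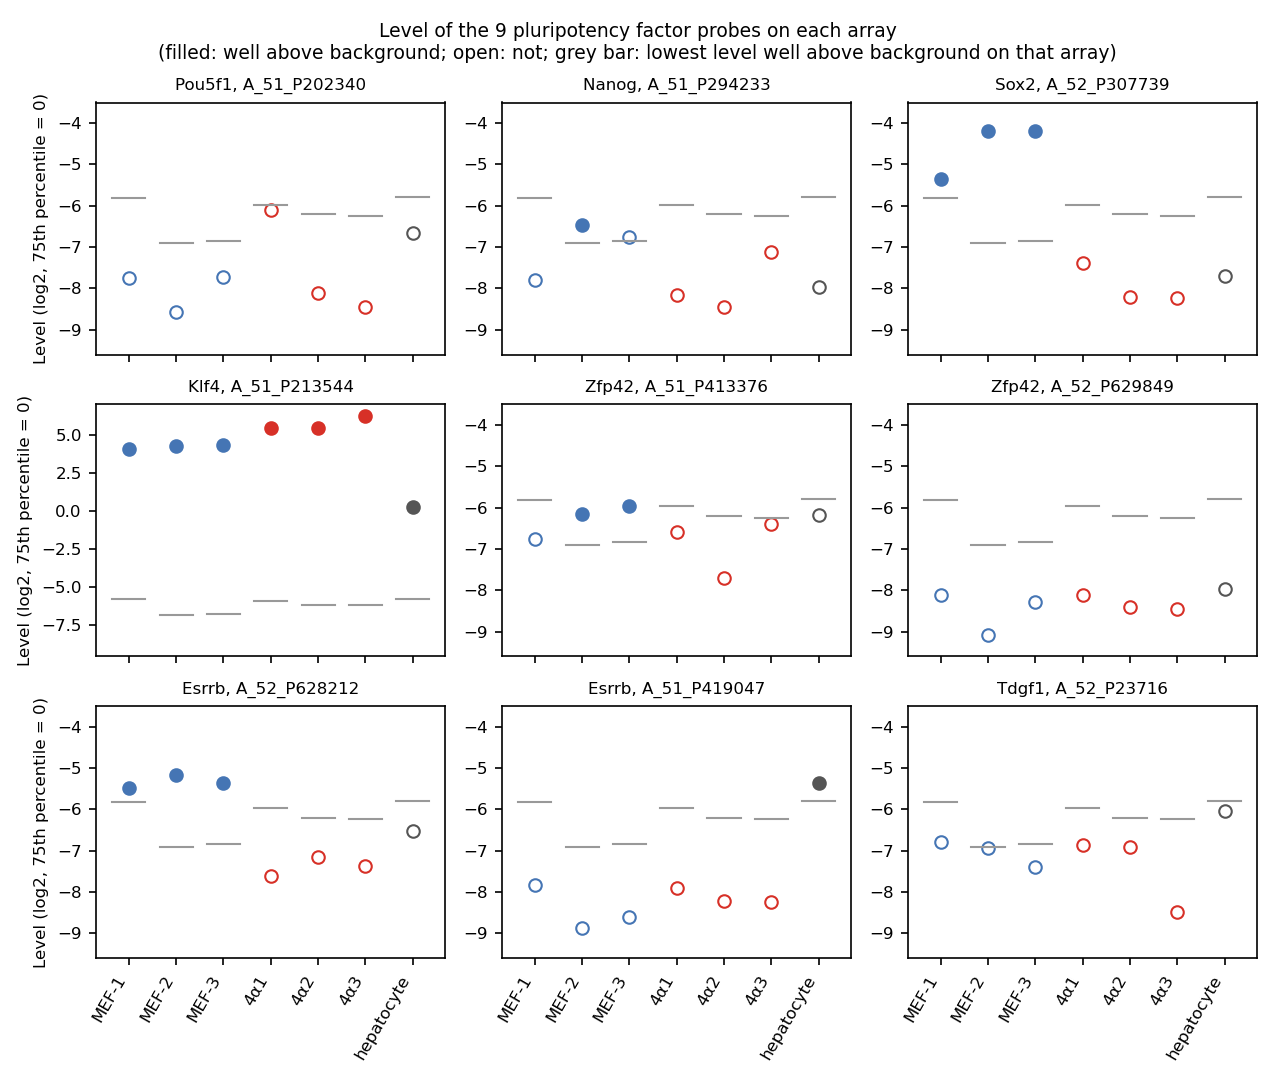
Level (log2, with the 75th percentile of the array at 0, y axis) of each of the 9 probes on the 7 arrays (x axis). Filled points are well above background and the grey bar is the lowest level so marked on that array. Klf4, with a y axis of its own, is filled on all 7 arrays, and the other 8 probes are open on all 3 iHep arrays.

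Pou5f1 (A_51_P202340, mm8 chr17:35118388-35118448), the gene of Oct4, had levels of -7.75, -8.58 and -7.73 in MEF-1, MEF-2 and MEF-3. The levels were -6.10 in 4α1, -8.12 in 4α2, -8.44 in 4α3 and -6.66 in the hepatocytes. The highest value, in 4α1, was a signal of 11.1 and lay just under the lowest detected level of that array, -5.97. None of these values was well above background, and the groups overlapped.

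Nanog (A_51_P294233, mm8 chr6:122679692-122679751) had levels of -7.79, -6.46 and -6.75 on the MEF arrays in the same order. It had -8.15, -8.45 and -7.13 in 4α1, 4α2 and 4α3, and -7.97 in the hepatocytes. It was well above background on MEF-2 alone, with a signal of 18, and MEF-3, counted as the same sample, had 13.9 and was not. On MEF-1, the MEF array with the iHep slide, the signal was 3.86, within the iHep range of 2.58 to 5.93.

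For Zfp42, the brighter probe (A_51_P413376, mm8 chr8:44794130-44794189, minus strand) had levels of -6.75, -6.16 and -5.97 in MEF-1, MEF-2 and MEF-3. The iHep values were -6.59, -7.71 and -6.40, and the hepatocyte value -6.17. It was well above background on MEF-2 and MEF-3 only, so its detection stopped at the arrays of slide 2, while the levels of the 3 groups overlapped. The other probe (A_52_P629849, mm8 chr8:44794170-44794241), which shares 20 bases of genome with it, was detected on no array, with levels from -9.08 to -7.98.

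Tdgf1 (A_52_P23716, mm8 chr9:110785566-110785625, minus strand), the Nodal co-receptor Cripto, had levels of -6.79, -6.93 and -7.40 on the MEF arrays. It had -6.87, -6.90 and -8.48 on the iHep arrays and -6.04 in the hepatocytes, with no array well above background. Pou5f1, Nanog, Zfp42 and Tdgf1 were not well above background on every array of any group and were therefore not tested. Exon and UTR annotation of mm8 was not used here.

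Sox2, Klf4 and Esrrb were tested, with limma over all 19135 genes detected on every array of at least 1 group and Benjamini-Hochberg adjustment over them. In iHep against MEF, Klf4 was higher. Over all genes tested, 10% were called higher and 13.2% lower at an adjusted p under 0.05, and the median change was -0.04. In hepatocytes against MEF Klf4 was lower, where 24.3% of genes were called lower, 29.3% higher and the median was 0.20. Between iHep and hepatocytes Klf4 alone of the 3 was called, where 21.5% of genes were called higher in iHep, 28.3% lower and the median was -0.23. Sox2 and the brighter Esrrb probe passed the filter only through the MEF arrays, so their lower values outside MEF are tied to the filter, and their fitted differences and adjusted p-values against MEF are given as a description. The other Esrrb probe, which passed the filter only through the hepatocyte array, had the opposite direction there.

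**Figure D2:**
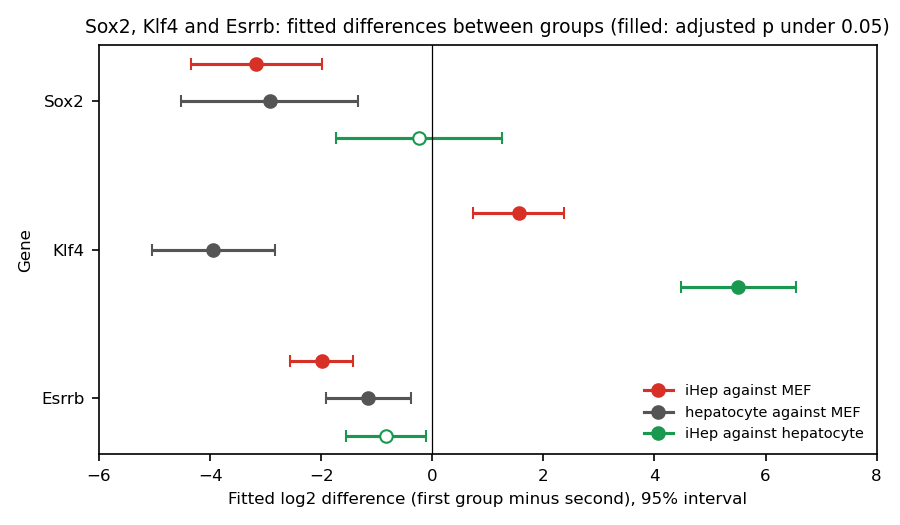
Fitted log2 difference (x axis, first group minus second, with its 95% interval) of Sox2, Klf4 and Esrrb (y axis) in the 3 comparisons. Filled points have an adjusted p under 0.05. Klf4 lies right of 0 in iHep against MEF (1.56) and left of it in hepatocytes against MEF (-3.95).

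Klf4 (A_51_P213544, mm8 chr4:55549061-55549120, minus strand) was well above background and not saturated on all 7 arrays. Its levels were 4.03, 4.25 and 4.31 in MEF-1, MEF-2 and MEF-3, and 5.47, 5.43 and 6.25 in 4α1, 4α2 and 4α3. The hepatocytes had 0.21. The order was thus iHep, MEF, hepatocytes with no overlap, and within iHep 4α1 and 4α2 were 0.04 apart with 4α3 above them. The iHep mean of 5.72 ± 0.46 (SD, n = 3) was 2.953-fold above the MEF mean of 4.15 ± 0.18 (SD, n = 2), a log2 difference of 1.56 ± 0.32 (SE, limma adjusted p = 0.0275). Each type exceeded MEF-1 on their shared slide, by 1.44, 1.40 and 2.22. The call depended on single samples: with slide as a block, which leaves MEF-1 as the only MEF array compared, the difference was 1.69 (adjusted p = 0.111), without MEF-1 it was 1.44 (adjusted p = 0.145), and without 4α1 it was 1.68 (adjusted p = 0.0575). All 16 alternatives kept the direction, with 1.30 to 1.71 and adjusted p from 0.00664 to 0.145.
Against the hepatocytes the gap was wider. Klf4 was 45.54-fold higher in iHep (5.51 ± 0.40, adjusted p = 0.000728) and 15.42-fold higher in MEF (hepatocyte minus MEF -3.95 ± 0.43, adjusted p = 0.00185). Both calls held in all 14 alternatives. The hepatocyte array is alone in its group and on its slide, so group and slide cannot be told apart there.

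Sox2 (A_52_P307739, mm8 chr3:34843400-34843459) was low in every cell and above background in MEF only. Its levels were -5.34, -4.20 and -4.20 in MEF-1, MEF-2 and MEF-3, with signals of 21.1, 86.2 and 81.5. In 4α1, 4α2 and 4α3 the levels were -7.39, -8.21 and -8.23, and in the hepatocytes -7.70, none of them well above background. All 3 MEF arrays lay above all other arrays. The fitted difference of iHep from MEF was -3.17 ± 0.46 (adjusted p = 0.0109), and since the dimmer group was at background the change is at least 2.581-fold. The hepatocytes differed from MEF by -2.93 ± 0.62 (adjusted p = 0.0140, at least 2.029-fold). Between iHep and hepatocytes the difference was -0.24 (95% interval -1.74 to 1.26, adjusted p = 0.749), and its sign turned under quantile normalization (0.26) and with the deposited table (0.28). On slide 1 alone the types differed from MEF-1 by -2.04, -2.86 and -2.89, and with slide as a block, the same fit as without MEF-2 and MEF-3, the difference was -2.60 (adjusted p = 0.0562). Normexp background correction, which adds an offset of 50 to each signal, left -0.48 (adjusted p = 0.191) for iHep and -0.29 (adjusted p = 0.465) for hepatocytes against MEF.
Sox2 also marks neural progenitors, and neural and Schwann cell markers were checked beside it. Of 12 tested from that list of 18, 5 were lower in iHep than in MEF and 2 higher, with a median of -0.38, where 13.2% of all genes were called lower and 10% higher. With slide as a block 2 were lower, and 3 without MEF-1 or without 4α2. Fabp7, a fatty acid binding protein of glial progenitors, fell by 6.99 in log2 units (at least 57.23-fold, adjusted p = 0.0115, and 0.0548 with slide as a block), and S100b by 3.70 (13.0-fold, adjusted p = 0.00700). Erbb3, a neuregulin receptor also found in epithelia, rose by 6.84 (adjusted p = 0.00310) and the myelin gene Mbp by 2.22 (adjusted p = 0.0104). The summed linear level of the 18 markers, in units of the array's 75th percentile, was 4.02 to 10.5 in MEF, 5.76 to 11.4 in iHep and 20.7 in the hepatocytes. Erbb3 alone made 19.4 of the hepatocyte sum. Without it the sums were 3.99 in MEF-1, 10.4 in MEF-2, 10.5 in MEF-3, 4.23 to 6.74 in iHep and 1.32 in the hepatocytes. MEF-1, on the slide of the iHep arrays, thus lay below all iHep arrays. By the probe standing for each gene, Gfap, Sox3, Cdh19, Elavl3 and Dcx were at background on all arrays. Another Gfap probe was well above background on 2 MEF arrays and on no iHep or hepatocyte array, with -1.11 for iHep against MEF. The part of such cells in the Sox2 result was not tested.

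Esrrb gave opposite pictures with its 2 probes, whose starts lie 6320 bases apart. The brighter one (A_52_P628212, mm8 chr12:87404222-87404281), designed on the cDNA AK044339, had levels of -5.49, -5.17 and -5.36 in MEF-1, MEF-2 and MEF-3. It had -7.61, -7.14 and -7.37 in 4α1, 4α2 and 4α3 and -6.53 in the hepatocytes, so MEF lay above all others and only MEF was well above background. Its difference of iHep from MEF was -1.99 ± 0.22 (adjusted p = 0.00541, at least 1.696-fold), and on slide 1 the types differed from MEF-1 by -2.12, -1.65 and -1.87. The hepatocytes differed from MEF by -1.16 ± 0.30 (adjusted p = 0.0258, at least 1.334-fold), a call lost without MEF-1 (-1.27, adjusted p = 0.0624) and without MEF-2 and MEF-3 (-1.04, adjusted p = 0.0913). iHep against hepatocytes gave -0.84 ± 0.28 (adjusted p = 0.0589). With normexp the differences from MEF were -0.36 (adjusted p = 0.154) for iHep and 0.00 (adjusted p = 0.996) for hepatocytes.
The other probe (A_51_P419047, mm8 chr12:87410542-87410601), designed on the RefSeq transcript NM_011934, was detected in the hepatocytes alone. Its levels were -7.83, -8.88 and -8.61 in MEF and -7.89, -8.22 and -8.25 in iHep, against -5.37 in the hepatocytes. Fitted as a feature of its own, it was 2.92 ± 0.44 higher in hepatocytes than in MEF (at least 1.971-fold). It passed the filter through the hepatocyte array alone, so this difference is tied to the filter and is given as a description. It differed by 0.17 ± 0.33 between iHep and MEF (adjusted p = 0.733), where no array was above background. The direction of Esrrb in hepatocytes against MEF therefore depends on the probe, and no single direction is given for the gene.

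Among the 16 other Kruppel-like factors, zinc finger proteins that bind GC-rich and CACCC sites, 5 were higher and 2 lower in iHep than in MEF, with a median of 0.66, where 10% of all genes were called higher and 13.2% lower. Klf15, a regulator of amino acid and glucose metabolism in liver, rose by 3.40 ± 0.20 (10.53-fold, adjusted p = 0.00107). Klf5, which acts with Klf4 and Klf2 in embryonic stem cells and in gut epithelium, rose by 3.16 ± 0.33 (8.952-fold, adjusted p = 0.00452). Klf9, a glucocorticoid-responsive member, rose by 2.16 ± 0.19 (adjusted p = 0.00314), and Klf10 by 1.59 and Klf13 by 1.07. The calls of Klf15, Klf5 and Klf9 held in all 16 alternatives, while with slide as a block Klf10 (adjusted p = 0.0724) and Klf13 (adjusted p = 0.0756) were not called. Klf8 changed by -4.58 ± 0.20 (23.87-fold lower, adjusted p = 0.000585) and Klf14 was at least 3.578-fold lower (adjusted p = 0.0135, and 0.0557 with normexp). Klf14 passed the filter through the MEF arrays alone, so its lower values in iHep and hepatocytes are tied to the filter. The second probe of Klf8, detected on 2 MEF arrays only, gave -0.83.
In hepatocytes against MEF 6 of the 16 were higher and 6 lower, with a median of 0.66, where 29.3% of all genes were called higher and 24.3% lower. Klf15 rose by 6.97, Klf1 by 4.29, Klf9 by 3.01 and Klf12 by 2.96, the last with adjusted p = 0.0414 and 0.131 with scan day as a block. Klf1 passed the filter through the hepatocyte array alone, so its rise is tied to the filter. The falls were -6.89 for Klf8, -4.42 for Klf5, -3.69 for Klf6 and -3.37 for Klf14. Klf4 and Klf5 were thus the members of the family called higher in iHep than in MEF and lower in hepatocytes than in MEF. The second probe of Klf5 gave 4.20 for iHep against MEF and -0.18 for hepatocytes against MEF, where neither group was well above background on all arrays. Klf2 was not called in either comparison, at -0.67 (adjusted p = 0.327) and 1.77 (adjusted p = 0.0566), and its second probe gave -1.45 and -1.10.
Klf4 was highest in 4α3 among the iHep types, as were Klf5 and Klf6. Of the 15 Kruppel-like genes, Klf4 included, that were detected on all 3 iHep arrays, 10 were highest in 4α3, 4 in 4α1 and 1 in 4α2. Over 15829 genes detected there the shares were 41.3%, 31.8% and 26.9%. With 1 array per type this order has no replicate check.

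**Figure D3:**
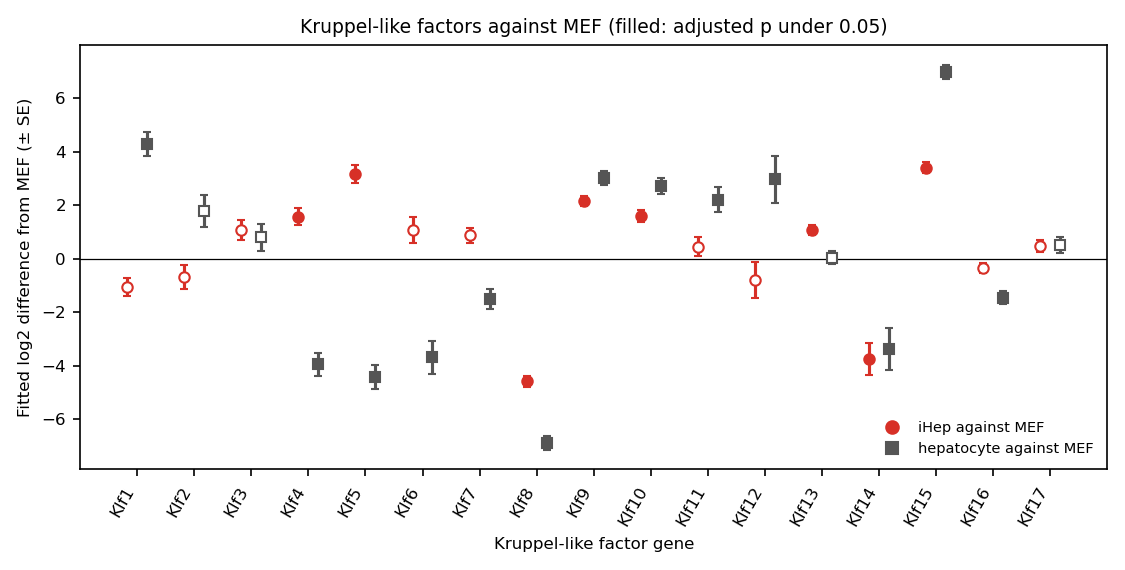
Fitted log2 difference from MEF (y axis, ± SE) of 17 Kruppel-like factors (x axis), for iHep (circles) and hepatocytes (squares), filled where the adjusted p is under 0.05. Klf4 (1.56 and -3.95) and Klf5 (3.16 and -4.42) have filled points on opposite sides of 0.

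A wider list held 32 pluripotency-associated genes, 28 of them on the array. Of these, 16 were detected on all 3 iHep arrays and 14 on all 7 arrays. Levels among the 14 ranged widely. Over the 7 arrays Utf1 had -5.55 to -3.94 and Tdh -5.53 to -4.57, near the lowest detected levels of -6.90 to -5.79. Klf2 had 4.67 to 7.23. Of all 27583 genes and unnamed probes, 15829 were detected on all 3 iHep arrays and 13870 on all 7, so the shares in the list were near these. In the list, 8 genes were detected on no array (Dppa3, Dppa4, Lin28a, Nr0b1, Gdf3, Lefty2, Eras and Gbx2) and 10 on no iHep array. Of the 17 tested, 2 were higher in iHep than in MEF and 0 lower by limma, with a median of -0.27, where 10% of all genes were called higher and 13.2% lower, so the share called higher was near that over all genes. These 2 were Tfcp2l1 and Klf5. At an unadjusted p under 0.05 Sall4 (-0.64), Lefty1 (-2.20), Dnmt3l (-0.96) and Sox15 (-0.43) had lower values in iHep but did not pass the adjustment.
Tfcp2l1, a grainyhead-like factor of naive stem cells that is also expressed in kidney and other epithelia, had levels of -4.79, -5.67 and -5.71 in MEF-1, MEF-2 and MEF-3. It had 2.67 in 4α1, 1.56 in 4α2, 4.32 in 4α3 and -0.33 in the hepatocytes. All iHep arrays lay above the hepatocytes and these above MEF. The rise in iHep was 8.09 ± 0.86 (272-fold, adjusted p = 0.00481), called in all 16 alternatives, with 7.79, 7.06 and 3.69 from its other 3 probes. In hepatocytes against MEF it was 4.91 ± 1.15 (adjusted p = 0.0193), a call lost with scan day as a block (4.46, adjusted p = 0.0780). Klf5 had -1.11, -1.17 and -1.12 in MEF, 2.03, 1.54 and 2.53 in iHep and -5.55 in the hepatocytes.
Dppa5a, an RNA-binding protein of early embryos, had 1.63 in 4α3 against -0.75 in 4α1 and -0.93 in 4α2, and -2.54 to -1.64 in MEF. The difference of iHep from MEF was 2.08 ± 0.88 (adjusted p = 0.153). It was named after its values were seen.
Hepatocytes had 4 of the 17 higher than MEF and 2 lower, with a median of 0.61, where 29.3% of all genes were called higher and 24.3% lower. Nr5a2 (LRH-1), a nuclear receptor that can replace Oct4 in reprogramming and drives bile acid genes in liver, was detected on the hepatocyte array alone, at 2.56 against -7.47 to -6.71 in MEF and -8.18 to -6.94 in iHep. It was at least 478.7-fold higher in hepatocytes than in MEF (9.56 ± 0.58). Nr5a2 passed the filter through that array alone, so this difference is tied to the filter and is given as a description. No iHep array detected it.

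**Figure D4:**
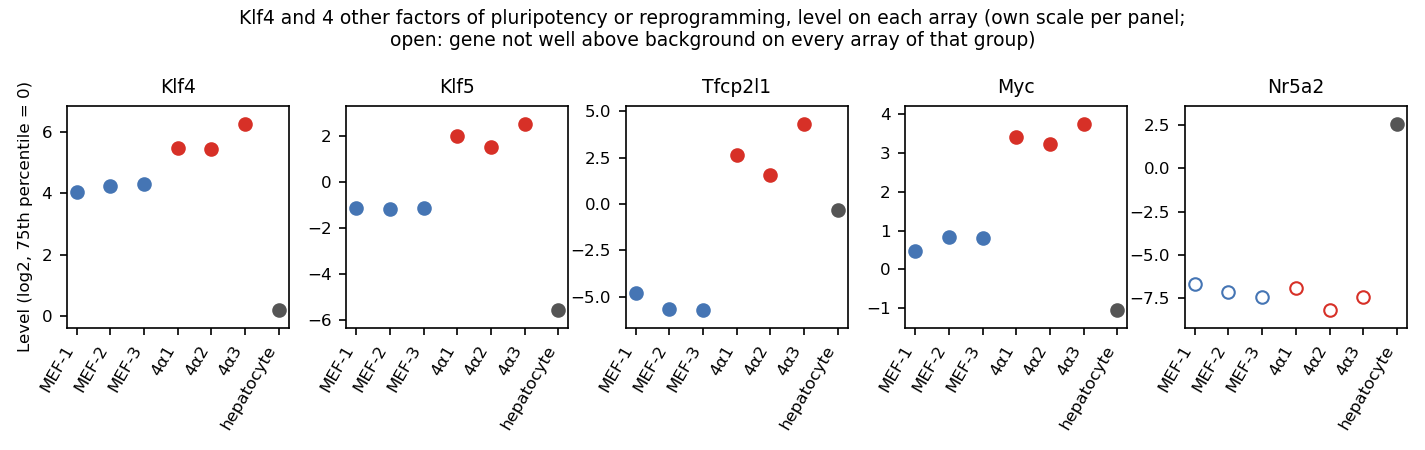
Level (log2, with the 75th percentile of the array at 0, y axis, own scale per panel) of Klf4, Klf5, Tfcp2l1, Myc and Nr5a2 on each of the 7 arrays (x axis). Klf4, Klf5, Tfcp2l1 and Myc are higher on the 3 iHep arrays than on all others, and Nr5a2 is high on the hepatocyte array (2.56) and open on the rest.

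Of the other factors used to reprogram cells, 7 of 8 were tested in iHep against MEF, with 1 higher, 0 lower by limma (1 at an unadjusted p under 0.05) and a median of -0.51. Over all genes tested 10% were called higher and 13.2% lower. Myc, the growth factor-responsive oncogene of the reprogramming cocktail, had 0.48, 0.83 and 0.81 in MEF, 3.42, 3.24 and 3.75 in iHep and -1.04 in the hepatocytes. It rose 7.064-fold in iHep (2.82 ± 0.24, adjusted p = 0.00280), with 2.81 and 2.70 from its other probes, and the call held in all 16 alternatives. The hepatocytes were 3.234-fold below MEF (-1.69 ± 0.32, adjusted p = 0.0105). Of the 4 genes of the classical cocktail, Klf4 and Myc were higher in iHep than in MEF, and Sox2 and Pou5f1 were detected on no iHep array.
Levels of other cell types' markers moved with these genes. Beside the counts that follow, 10% of all genes were called higher and 13.2% lower in iHep against MEF. All 11 epithelial markers were higher in iHep than in MEF, with a median of 7.11, and their summed linear level was 397 to 685 in iHep against 4.12 to 5.77 in MEF and 245 in the hepatocytes. By the probe standing for each gene, Cdh1, Epcam, Ocln, Esrp1 and Grhl2 were at background on all MEF arrays. Another Grhl2 probe was well above background on 1 MEF array and on no iHep array, with -0.91 for iHep against MEF. Of 11 tested stomach and foregut markers 6 were higher and 0 lower by limma, also at an unadjusted p under 0.05, and their sum was 99.5 to 395 in iHep, highest in 4α3, against 0.579 to 0.700 in MEF and 1.30 in the hepatocytes. The count higher was 3 with slide as a block, without MEF-1 or with normexp, and 4 without 4α1 or without 4α3. Gkn1 was at background on all arrays. Some of the epithelial and foregut markers were detected on the iHep arrays alone, so their higher values there are tied to the filter. Of 10 fibroblast markers 8 were lower (4 with slide as a block and 2 without MEF-1), with sums of 31.3 to 85.3 in iHep against 708 to 724 in MEF. The part of epithelial or foregut-like cells in the levels of Klf4, Klf5, Tfcp2l1 and Myc was not tested.

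The leukaemia inhibitory factor pathway holds mouse stem cells in the naive state and induces Klf4 through Stat3. Of its 8 genes tested 1 was higher and 0 lower in iHep against MEF by limma (1 lower at an unadjusted p under 0.05), with a median of 0.37, and 10% of all genes were called higher. Pim3, a kinase downstream of Stat3, rose by 3.60 ± 0.21 (12.11-fold, adjusted p = 0.00102, called in all 16 alternatives). Stat3 itself had 2.14 to 2.35 in iHep against 2.71 to 3.09 in MEF and 3.20 in the hepatocytes. Its difference of iHep from MEF was -0.67 by this probe (adjusted p = 0.0726, not called) and 0.82 by its other probe, so the probes disagreed in direction. Against MEF, hepatocytes had 3 higher and 1 lower, where 29.3% of all genes were called higher and 24.3% lower. The largest rise was that of the receptor gene Lifr (7.27 ± 0.63, 154.5-fold, adjusted p = 0.000971), whose other 4 probes gave 2.85 to 4.38.

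The Nodal and Cripto pathway, in which Tdgf1 acts, had 14 of 18 genes tested. In iHep against MEF 3 were higher and 4 lower, with a median of -0.09, where 10% of all genes were called higher and 13.2% lower. Among ligands, Gdf1 fell by 3.42 in log2 units (10.67-fold, adjusted p = 0.00168), while Nodal was at -3.89 to -3.44 in iHep and -3.82 to -3.75 in MEF. Among receptors, Acvr2b rose by 2.29 (adjusted p = 0.0127) and Acvr1b by 2.25 (adjusted p = 0.0172), whereas Acvr2a fell by 2.13 (adjusted p = 0.00504). The other probes of Acvr2a gave -0.83 and 0.14. The transducer Smad2 fell by 0.87 and the convertase gene Pcsk6 rose by 0.97. With slide as a block Acvr1b, Smad2 and Pcsk6 were not called (adjusted p = 0.105, 0.115 and 0.142). Lefty2, Gdf3, Acvr1c and Cer1 were at background on all arrays. In hepatocytes against MEF 5 were higher and 5 lower, with Acvr2b at 4.17, Pcsk6 at 3.31 and Gdf1 at -6.90. There 29.3% of all genes were called higher and 24.3% lower.

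The families of Sox2, Pou5f1 and Esrrb were read in the same way. Of 15 SOX genes tested 2 were higher in iHep than in MEF and 0 lower by limma (4 lower at an unadjusted p under 0.05), with a median of -0.36, where 10% of all genes were called higher. Sox9, a factor of bile duct and foregut progenitors, rose by 1.50 ± 0.20 (2.833-fold, adjusted p = 0.00880) and Sox13 by 2.13 ± 0.41 (adjusted p = 0.0225), and with slide as a block the adjusted p-values were 0.0626 and 0.0833. Against MEF, hepatocytes had 6 higher and 2 lower, where 29.3% of all genes were called higher and 24.3% lower. Sox11 (-7.33, at least 35.53-fold) and Sox4 (-7.14, 141.3-fold) fell most, while Sox18, an endothelial factor, was at least 17.16-fold higher. Sox18 passed the filter through the hepatocyte array alone, so its difference is tied to the filter. Of 13 POU genes 5 were detected on no array and 5 were tested, where 19135 of all 27583 genes and unnamed probes were tested. In iHep against MEF limma called 0 of the 5, with 2 lower and 0 higher at an unadjusted p under 0.05 and a median of -0.49. Over all genes tested 10% were called higher and 13.2% lower. Pou2f1 (Oct1), the widely expressed relative, was detected on all arrays and was 1.49 higher in hepatocytes than in MEF (adjusted p = 0.0248, and 0.0524 with scan day as a block).
By the probe standing for each gene, the oestrogen-related receptors Esrra and Esrrg and 4 of their coactivators were detected on all arrays. That probe of Esrrg gave -0.13 for iHep against MEF (adjusted p = 0.705). The other Esrrg probe was detected on 3 MEF arrays, 0 iHep arrays and the hepatocyte array, and gave -5.1, so the probes disagreed in iHep. The coactivator Ppargc1a, which drives mitochondrial and gluconeogenic genes, rose by 4.83 ± 0.58 in iHep (28.43-fold, adjusted p = 0.00666, and 0.0569 with slide as a block) and by 4.48 in hepatocytes. Esrra had 1.91 to 3.29 in iHep against 1.81 to 1.92 in MEF and was not called.

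Genes of primed pluripotency and gastrulation included some that MEF express. Of 8 tested 0 were higher in iHep than in MEF by limma, also at an unadjusted p under 0.05. In the same comparison 2 were lower, with a median of -0.55, where 10% of all genes were called higher and 13.2% lower. Fgf5, a growth factor of the epiblast and of fibroblasts, had -0.59, -2.03 and -2.17 in MEF and -8.44 to -7.43 in iHep, at least a 27.79-fold decrease (adjusted p = 0.00262). Fgf5 passed the filter through the MEF arrays alone, so its decrease is tied to the filter and is given as a description. Gsc, a homeobox gene of the organizer and later of mesenchyme, fell by 5.46 (44.1-fold, adjusted p = 0.00419). Otx2, T, Mixl1 and Cer1 were at background on all arrays. Of 10 germ cell markers, 4 were detected on no array and 8 on no iHep array. Over all probes, 61.0% to 63.6% were well above background on each iHep array. The summed level of the germ cell markers was 0.139 to 0.236 in MEF, 0.0752 to 0.461 in iHep and 0.256 in the hepatocytes. The part of germ cells in the Zfp42 and Nanog signals of slide 2 was not tested.

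The genes with the most similar pattern were ranked by Pearson correlation of level over the 6 samples, which share arrays and slides, so each value is a description. For Klf4 they were Pfkp (0.9999), a glycolytic enzyme, the unnamed transcript NAP103789-1 (0.998), Ube2t (0.9977) and Dnajc10 (0.9976). Pfkp had 0.05 and 0.35 in MEF, 1.69, 1.66 and 2.56 in iHep and -4.00 in the hepatocytes. For Sox2 they were B230354K17Rik (0.9956), Nckap5l (0.9954), Nme1 (0.9942) and Spink8 (0.9932), of which Spink8 was, like Sox2, above background on the MEF arrays only. For the brighter Esrrb probe they were Rasl10b (0.9997), Camk4 (0.9973), Pign (0.9952) and Tnk2 (0.9944).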

How the data were processed

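RNA of 3 MEF, 3 iHep and 1 hepatocyte samples was labelled with Cy3 from 0.5 ug and hybridised with 1 array per sample. Spots were quantified by Agilent Feature Extraction 9.5.1.1, per the submitters' processing notes. The processed signal is an intensity on a linear scale, background-subtracted by that software per the file headers and deposited without scaling between arrays. Mean and local background signals, also intensity values per the file headers, served 1 alternative. The flags for background, saturation and outliers, of the unit other, came from the deposited files. The deposited value table, also intensity, correlated with each array's log2 signal at 0.9988 to 0.9999 and has a median of 66.4 in each column. Its making is not stated in these sources.

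Outlier spots (66 to 104 of 43379 on an array) were dropped and repeats of a probe averaged, leaving 41138 of 41174 probes. Probes took names by accession through the GRCm38.p6 table (24358), by symbol or synonym (8714) or from the file (7805), and 261 had none. The brightest probe stood for a gene. Probe positions are the array's own, build mm8. The test was limma 3.58.1 under R 4.3.3, 1 fit over 6 samples (lmFit, eBayes). A gene is called at a Benjamini-Hochberg adjusted p under 0.05 over 19135 genes. The hepatocyte group, with 1 array, took its spread from MEF and iHep. The p-values reflect the spread among these samples alone, which may be technical. "At least" folds compare the brighter group's mean with the dimmer probe raised, on each array, to the lowest detected level where it was below that. The code was tested on simulated data.

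The named genes were all 7 factors with every probe, the up to 4 called genes with the largest change in each direction per list and comparison against MEF, and the 4 most similar genes per factor tested. A gene named by this rule is not reported here. The factors and the gene lists were chosen with earlier results of these data known. Of the listed genes, Fgf4, Trim71, Prdm14, L1td1, Lif, Gif and Serpina1a matched no probe by name and were not analysed here. Alternatives covered the MEF samples, slide and scan day, background correction, scaling, the deposited table, filters, probes and leaving out each sample. The number of arrays limits the precision.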

Additional observations from a re-analysis of the deposited data

Results flagged for a closer look

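The Esrrb probe A_51_P419047, which does not stand for the gene in the comparisons because it was the dimmer of the pair, had a level of -5.37 on the hepatocyte array. It was well above background there and on no MEF or iHep array. The lowest level well above background on the hepatocyte array was -5.79, so the signal, 15.1, lay close to that limit, and there was 1 hepatocyte array.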

How the results depend on the processing

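Of the calls on Klf4, those against hepatocytes kept their side of the threshold in all 14 alternatives each. In iHep against MEF, slide as a block or scan day as a block (added after seeing the data) left MEF-1 as the only MEF array compared. Fewer genes were then called, and Klf4 and Sox2 were not. The differences were 1.69 for Klf4, -2.60 for Sox2 and -1.88 for Esrrb. With 3 separate MEF arrays 3161 genes were higher and 4151 lower, and in iHep against hepatocytes 1 factor was lower. Normexp left 0 factors lower in iHep and 1 in hepatocytes against MEF. Keeping only genes above background on every array, which leaves out Sox2 and Esrrb, gave 0 and 1, with 3690 genes higher in hepatocytes than in MEF and 3574 lower in iHep than in hepatocytes. With the mean over a gene's probes 1 factor, Esrrb, was higher in hepatocytes than in MEF (0.88, adjusted p = 0.0394) and 1 lower in iHep than in hepatocytes. Its second probe as a feature of its own (also added later) gave 0.17 and 2.92 against MEF. Sox2 in iHep against hepatocytes turned to 0.26 with quantile normalization and 0.28 with the deposited table. Only Sox2, Klf4 and Esrrb were tested in the main fit. Apart from Klf4 in hepatocytes, the factors counted as lower than MEF, here and below, are Sox2 and Esrrb. These passed the filter through the MEF arrays alone, so such counts are tied to the filter and are a description. Beyond what is stated, the cause was not tested.

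Leaving out 1 sample each gave, in iHep against MEF, 678 to 2083 genes higher and 912 to 2551 lower, with 0 to 1 factors higher and 1 to 2 lower. The counts fell past 1.5 times without MEF-1 (678 and 953), without MEF-2 and MEF-3 (742 and 912) and without 4α1 (1217 and 1650). In hepatocytes against MEF they were 4007 to 6164 and 3484 to 5126, with 2 to 3 factors lower, and in iHep against hepatocytes 3258 to 4487 and 4226 to 5766.

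Quantile normalization moved the median of all genes from 0.20 to 0 in hepatocytes against MEF and from -0.23 to 0.02 in iHep against hepatocytes, and the higher to lower split from 5602 and 4654 to 4946 and 5329, and from 4107 and 5423 to 4920 and 4432. MEF arrays and iHep types share digits, and deviations of same-numbered samples correlated at 0.029, -0.015 and -0.001. This check cannot decide whether the digits pair them. MEF-2 and MEF-3 counted as 1 sample, and the iHep deviations are differences between types. The digit as a replicate block gave 2374 genes higher and 3081 lower in iHep against MEF, where every value of the 3 factors tested kept its call. Signals of 10.9 to 15.1 limit what counts as detected.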
